A study of Homo sapiens with 2 samples.

Results

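The genes described here encode enzymes that make and break down monoamines: MAOA, MAOB and DDC. They were chosen by symbol, with earlier results of these data known, and all 3 were found among the 25343 rows of the deposited expression table. The study compared RNA-seq of C4-2B cells in 2 libraries. C4-2B is a castration-resistant derivative of C4-2, which came from LNCaP, a human prostate cancer line. C4-2B Con, sensitive to enzalutamide, was grown with DMSO, and C4-2B ENZR, resistant to it, was grown with 20 µM of enzalutamide, which is an antiandrogen. Each line gave 1 library. The suffix "shC" in both titles has no explanation in the labels. The drug was in the medium of the ENZR cells only, so an effect of resistance and an effect of the drug in the medium cannot be told apart.

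Monoamines such as dopamine, serotonin and noradrenaline are built from aromatic amino acids. Tyrosine or tryptophan is first hydroxylated, and DDC, aromatic L-amino acid decarboxylase, then removes the carboxyl group with pyridoxal phosphate as its cofactor. MAOA and MAOB, flavin enzymes of the outer mitochondrial membrane, oxidise the amines and release an aldehyde, ammonia and hydrogen peroxide. MAOA prefers serotonin and noradrenaline, MAOB prefers phenylethylamine, and both act on dopamine. In prostate cancer MAOA has been linked to high tumour grade, and DDC is known as a marker of neuroendocrine cells.

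MAOA and MAOB are neighbours on chromosome X and DDC lies on chromosome 7. The 250 bases before each start site are shown because the sister genes MAOA and MAOB, whose levels lay far apart in both libraries (below), are each known to be driven through GC-rich promoters. Sequences are from RefSeq, build GRCh38.p14, and are written 5′ to 3′ along the gene's strand. Capitals mark the GC box GGGCGG, the core of Sp-family binding sites, on either strand (CCGCCC where it lies on the opposite strand).
MAOA promoter, chrX:43656049-43656298, plus strand: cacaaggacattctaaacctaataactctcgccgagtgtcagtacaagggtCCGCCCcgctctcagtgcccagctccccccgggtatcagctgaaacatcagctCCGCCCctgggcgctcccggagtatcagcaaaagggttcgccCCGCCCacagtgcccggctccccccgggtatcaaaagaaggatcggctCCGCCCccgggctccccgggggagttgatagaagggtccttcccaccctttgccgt
MAOB promoter, chrX:43882451-43882700, minus strand: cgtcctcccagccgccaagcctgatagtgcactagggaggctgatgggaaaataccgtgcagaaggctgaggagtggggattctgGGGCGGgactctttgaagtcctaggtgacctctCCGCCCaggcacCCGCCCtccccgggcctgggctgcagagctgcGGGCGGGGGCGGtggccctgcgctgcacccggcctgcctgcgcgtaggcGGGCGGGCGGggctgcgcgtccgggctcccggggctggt
DDC first promoter, chr7:50565406-50565655, minus strand: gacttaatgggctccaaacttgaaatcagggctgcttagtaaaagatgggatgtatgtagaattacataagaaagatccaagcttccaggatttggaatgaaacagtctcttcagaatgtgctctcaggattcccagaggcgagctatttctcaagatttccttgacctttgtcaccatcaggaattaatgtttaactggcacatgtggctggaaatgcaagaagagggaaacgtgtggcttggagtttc
DDC second promoter, chr7:50561072-50561321, minus strand: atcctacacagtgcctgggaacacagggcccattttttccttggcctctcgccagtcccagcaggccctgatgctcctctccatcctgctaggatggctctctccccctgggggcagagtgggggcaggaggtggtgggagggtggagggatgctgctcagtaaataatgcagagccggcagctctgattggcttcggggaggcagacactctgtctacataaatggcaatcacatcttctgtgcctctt

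The MAOA window held 4 copies of GGGCGG, all on the opposite strand, at 199, 146, 104 and 56 bases before the start (position of the first base). The MAOB window held 7 copies, 2 of which overlap each other. Neither DDC window held a copy. Of 35116 RefSeq promoter windows of the same length, 42.6% held at least 1. G and C made up 63.2% of the MAOA window, 72% of the MAOB window, and 42.4% and 58% of the DDC windows, beside a median of 58% over all windows. The palindromic androgen or glucocorticoid response element, AGAACA followed after NNN by TGTTCT, was in none of the 4 windows and in 1 of all 35116, and its left arm AGAACA, searched alone on both strands, was in none of the 4 and in 12.4% of all. A match or its absence describes these letters in this window only. DDC is transcribed from alternative first exons, and the table, which has 1 value per gene, does not separate them.

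The deposited values are reads per gene per 1000000 reads after TMM scaling (CPM in the text). Every value was a whole multiple of 1 step per library, so whole reads were recovered: 21024484 for Con and 23479051 for ENZR. With 1 library per line no spread between cultures can be measured and no test of the conditions was made. The interval given with a level is the exact 95% Poisson interval of its reads, and that given with a ratio is the exact 95% Clopper-Pearson interval of the 2 read counts. These intervals cover counting error only. Folds are plain CPM ratios, and a gene was counted as at least 2-fold higher or lower by its log2 ratio after adding 1 CPM, among the 13803 genes whose mean reached 1 CPM (the genes kept). Adding 1 CPM makes the log2 ratio of low genes smaller than their plain ratio.

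The labelled cell type was checked against markers. All 10 luminal markers had a mean of 1 CPM or more. KLK3, the androgen-induced gene for prostate-specific antigen, was at 1428 CPM and 3.72 CPM. The summed level of 3 basal markers was 0.392 CPM and 0.0404 CPM, with KRT5 and TP63 listed at 0 in both. Summed levels were 18.4 CPM and 45.8 CPM for 5 fibroblast markers (nearly all COL1A1, with COL1A2 listed at 0 in both), 10.5 CPM and 4.57 CPM for 3 endothelial markers, and 16.0 CPM and 10.07 CPM for 4 leukocyte markers (nearly all CD68, with CD3E listed at 0 in both). Their part in the results below was not tested.

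The 3 enzymes showed 3 different patterns. DDC, the synthetic enzyme, was 3.40-fold lower in ENZR. MAOA was abundant in both libraries and at nearly the same level. MAOB was close to absent from both.

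DDC had 1576 reads in Con and 562 reads in ENZR. Its level was 77.2 CPM (73.4 to 81.1) in Con and 22.7 CPM (20.9 to 24.7) in ENZR. The counting intervals did not overlap, and the ratio of Con over ENZR was 3.40 (3.08 to 3.75). The interval of this ratio left out 1, as did that of 71.2% of the genes kept. On the log2 scale with 1 CPM added the difference was -1.72. Of all genes kept, 4.64% were lower by 2-fold or more and 6.69% higher by 2-fold or more, and 1.55% had a log2 ratio below that of DDC. In bulk RNA, fewer cells with a transcript and less of it per cell cannot be told apart.

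MAOA had 6299 reads in Con and 8097 reads in ENZR. Its level was 309 CPM (301 to 316) in Con and 327 CPM (320 to 335) in ENZR. The ratio of ENZR over Con was 1.06 (1.03 to 1.10), or 0.09 on the log2 scale. This interval leaves out 1, as did that of 71.2% of the genes kept at this depth, and only 15.6% of the genes kept had a smaller log2 difference than MAOA in either direction. With the TMM scaling undone, the MAOA ratio was 1.15 and the median over all genes shifted from -0.01 to 0.10 in log2, so a difference of this size rests on the scaling.

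MAOB had 2 reads in Con and 1 read in ENZR. These correspond to 0.0980 CPM (0.0119 to 0.354) and 0.0404 CPM (0.00102 to 0.225). Both libraries lay at or under 3 reads, the floor under which no fold is given, and MAOB did not reach the mean of 1 CPM. A difference between the libraries was not detectable at this depth.

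**Figure D1:**
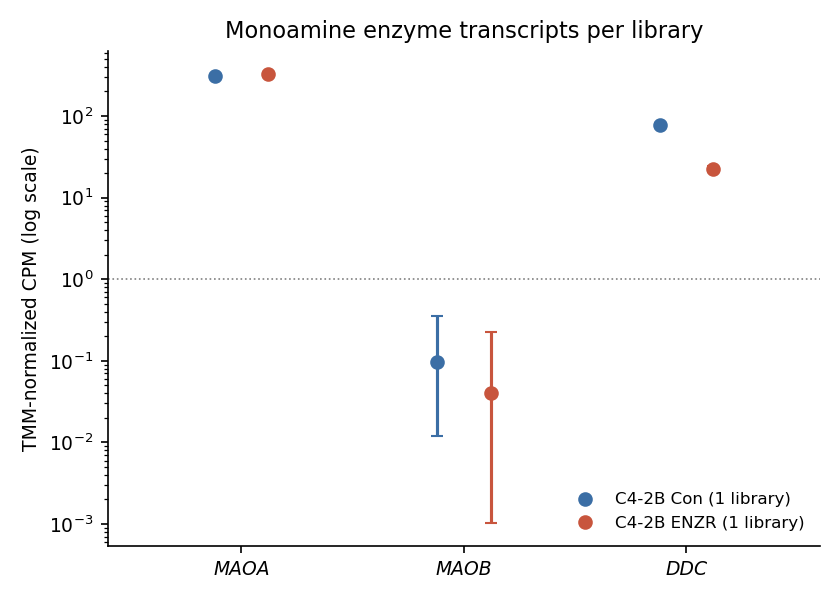
TMM-normalized CPM on a log axis for MAOA, MAOB and DDC in C4-2B Con (blue) and C4-2B ENZR (red), 1 library each. Bars are exact 95% Poisson intervals of the reads and the dotted line is 1 CPM; MAOA lies at 309 and 327 CPM, DDC at 77.2 and 22.7 CPM, and both MAOB points lie under 1 CPM with wide bars.

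Housekeeping genes were read in both libraries. None of 20 housekeeping genes, a list drawn up after the values were seen, had 3 reads or fewer in either library, and the lowest of them had 292 reads. The sister genes can also be told apart by short reads. Of 5411 distinct stretches of 50 bases in the coding transcripts of MAOA in GENCODE 29, and of 2517 in that of MAOB, 0 occurred on either strand in a transcript of any other gene. For DDC, 67 of 3011 (2.23%) did, all shared with the antisense gene DDC-AS1, which was not matched to a row of the table. The use of strand in the authors' counting is not given in the sources used here, so reads of these shared stretches cannot be told apart.

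Levels of different genes can be compared only per length. Per 1000 bases of the longest coding transcript in GENCODE 29, which may not be the annotation the authors used, MAOA stood at 56.7 CPM per kb in Con and 60.2 CPM per kb in ENZR. DDC stood at 37.8 and 11.1 CPM per kb, and MAOB at 0.0382 and 0.0158 CPM per kb. The order was therefore MAOA, DDC, MAOB in both libraries. Of 12013 kept genes with such a length, 10.1% stood above MAOA per kb in Con and 8.27% in ENZR. For DDC the shares were 16.1% and 45.4%. The distance between the first 2 differed: MAOA was 1.5 times DDC per kb in Con and 5.41 times in ENZR.

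**Figure D2:**
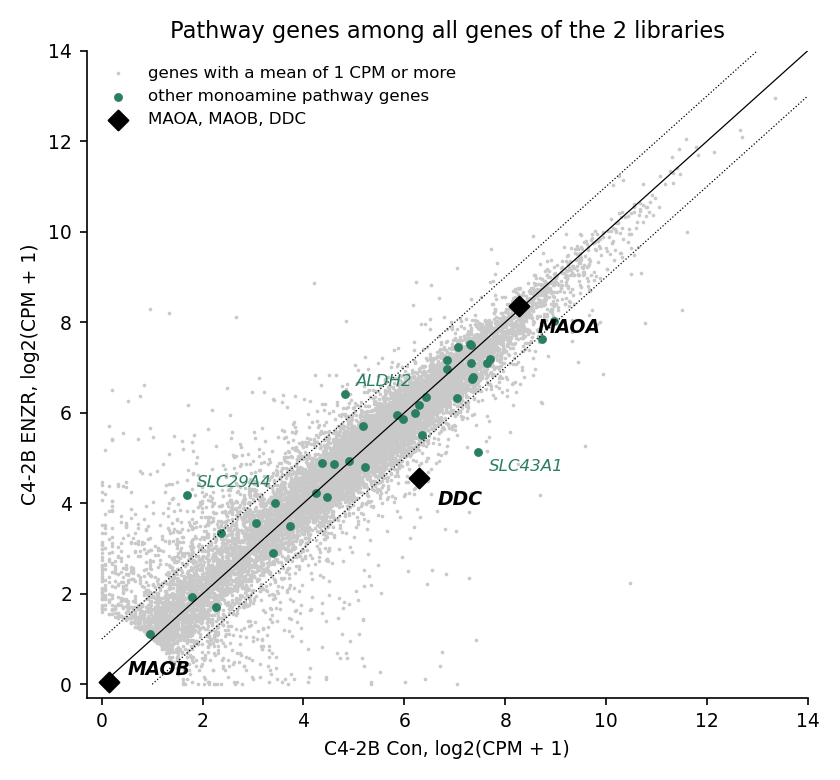
Levels in C4-2B Con (x axis) and C4-2B ENZR (y axis) as log2(CPM + 1), with the 13803 genes kept in grey, other monoamine pathway genes in green and MAOA, MAOB and DDC as black diamonds; the solid line is equality and the dotted lines mark 2-fold. MAOA, at 309 and 327 CPM, sits close to the line of equality, DDC lies below the lower dotted line and MAOB sits close to the origin.

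The other enzymes of amine synthesis were nearly unread. Of the 8 genes of that list only DDC reached a mean of 1 CPM, and the other 7 had at most 2 reads in either library. TH, tyrosine hydroxylase, TPH2, a tryptophan hydroxylase, and PNMT, which makes adrenaline, were listed at 0 in both. TPH1, the other tryptophan hydroxylase, had 2 reads in Con and 0 in ENZR. DBH, dopamine beta-hydroxylase, and HDC, histidine decarboxylase, had 1 read each in Con and 0 in ENZR. DDC was thus read at 562 reads or more where the hydroxylases that act before it had 2 or fewer.

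Of 6 genes for carriers that take up the precursor amino acids, all kept, 1 was at least 2-fold lower in ENZR. All 6 had a log2 ratio below 0, as did 6976 of the 13803 genes kept, and their median was -0.63 beside -0.01 for all genes. With any of the 3 other scalings tried, 5 of the 6 stayed below 0. SLC43A1, a carrier of large neutral amino acids, was at 176 CPM in Con against 33.9 CPM in ENZR, 5.18-fold lower (4.80 to 5.59). SLC7A5, the light chain of the main carrier of such amino acids and of L-DOPA, was at 502 CPM and 260.0 CPM, 1.93-fold lower (1.87 to 1.99). Its heavy chain SLC3A2 was at 199 CPM and 136 CPM, 1.46-fold lower (1.40 to 1.53). SLC16A10, an aromatic amino acid transporter, was at 17.9 CPM and 17.8 CPM, with a log2 ratio of -0.004.

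Cofactor genes were expressed in both libraries, with few large differences. All 8 genes of the tetrahydrobiopterin list, the cofactor of the hydroxylases, were kept, 5 above 0 and 3 below, 1 of them by 2-fold or more, with a median of 0.08. PCBD1, which recycles the cofactor, was at 115 CPM in Con against 125 CPM in ENZR.

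The cofactor of DDC itself is made by genes that differed little between the libraries. PDXK, pyridoxal kinase, was at 159 CPM in Con against 137 CPM in ENZR, 1.17-fold lower (1.11 to 1.22). None of the 3 genes of that list was 2-fold apart. Among 4 kept genes for the flavin cofactor of MAOA and MAOB, 0 were 2-fold apart and 3 lay below 0 (2 with the TMM scaling undone), with a median of -0.32. RFK, riboflavin kinase, was at 80.2 CPM and 44.8 CPM, 1.79-fold lower (1.66 to 1.93), and SLC52A2, a riboflavin transporter, at 84.6 CPM and 80.1 CPM.

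Among the amine oxidases MAOA stood highest per length in both libraries, with AOC2 next at 3.71 CPM per kb in Con and 5.68 CPM per kb in ENZR. Of 6 genes of oxidative breakdown, 3 were kept, with 0 at least 2-fold higher. All 3 lay above 0, as did 6827 of the 13803 genes kept, and MAOA was among them at only 0.09. AOC2, a copper amine oxidase, was at 9.85 CPM in Con against 15.1 CPM in ENZR, and AOC3, a second one (vascular adhesion protein), at 4.16 CPM and 9.10 CPM, a ratio of 2.18 (1.70 to 2.84). The log2 ratio of AOC3 was 0.97 as scaled by the authors and 1.07 with the TMM scaling undone. AOC1, diamine oxidase, had 22 reads in ENZR and 0 in Con, at least 6.05-fold higher against the floor of 3 reads, at a level of only 0.890 CPM. RNLS, renalase, had 5 reads and 11 reads.

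Of 10 listed genes that process the aldehyde released by MAOA, 6 were kept, and ALDH2 was higher in ENZR. The others of the list did not reach a mean of 1 CPM. Of 6 kept genes of that list, 1 was higher by 2-fold or more and 0 were lower by as much. The log2 ratio was above 0 for 4 and below 0 for 2, with a median of 0.25. ALDH2, the mitochondrial aldehyde dehydrogenase, was at 27.4 CPM in Con against 84.4 CPM in ENZR, 3.08-fold higher (2.80 to 3.38). ALDH1B1, a second mitochondrial form, was at 159 CPM and 180 CPM, and ALDH3A2, fatty aldehyde dehydrogenase, at 133 CPM and 175 CPM. On the other side, AKR1A1, an aldehyde reductase, was at 162 CPM and 106 CPM, 1.53-fold lower (1.45 to 1.61), and ADH5, an alcohol dehydrogenase, at 73.1 CPM and 62.6 CPM. ALDH1A1, a cytosolic form that handles the dopamine aldehyde in neurons, had 0 reads in Con and 9 in ENZR.

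Methylation and sulfation offer other routes of amine inactivation. Of 5 kept genes, 0 were 2-fold apart, and the median was 0.14. SULT1A1, a phenol sulfotransferase, was at 12.3 CPM and 10.2 CPM. SULT1A3 and SULT1A4, sulfotransferases with a preference for dopamine, are near-identical copies with the same value in every column, 7.30 CPM and 10.8 CPM, and were counted once.

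Among amine transporters, the neuronal ones were nearly unread and the broad ones were not. Of 9 genes, 3 were kept. SLC29A4, the plasma membrane monoamine transporter, was at 2.20 CPM in Con against 17.1 CPM in ENZR, 7.78-fold higher (5.71 to 10.8). SLC22A3, an organic cation transporter that also takes up monoamines, was at 163 CPM and 109.5 CPM, 1.49-fold lower (1.42 to 1.57). SLC18A2, the vesicular monoamine transporter, was at 9.46 CPM and 6.51 CPM, 1.45-fold lower (1.17 to 1.80). The noradrenaline transporter SLC6A2 was listed at 0 in both, the dopamine transporter SLC6A3 had 0 and 2 reads, and the serotonin transporter SLC6A4 had 16 and 21 reads.

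Over all 9 pathway lists, 39 of the 63 separate genes were kept. Of these 2 were at least 2-fold higher (5.13%, beside 6.69% of all genes) and 3 at least 2-fold lower (7.69%, beside 4.64%). The higher genes were ALDH2 and SLC29A4, and the lower genes included DDC and SLC43A1. The shares lie near those of all genes. The median log2 ratio was -0.08, beside -0.01 for all genes, and became 0.04 with the TMM scaling undone, so its direction rests on the scaling.

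**Figure D3:**
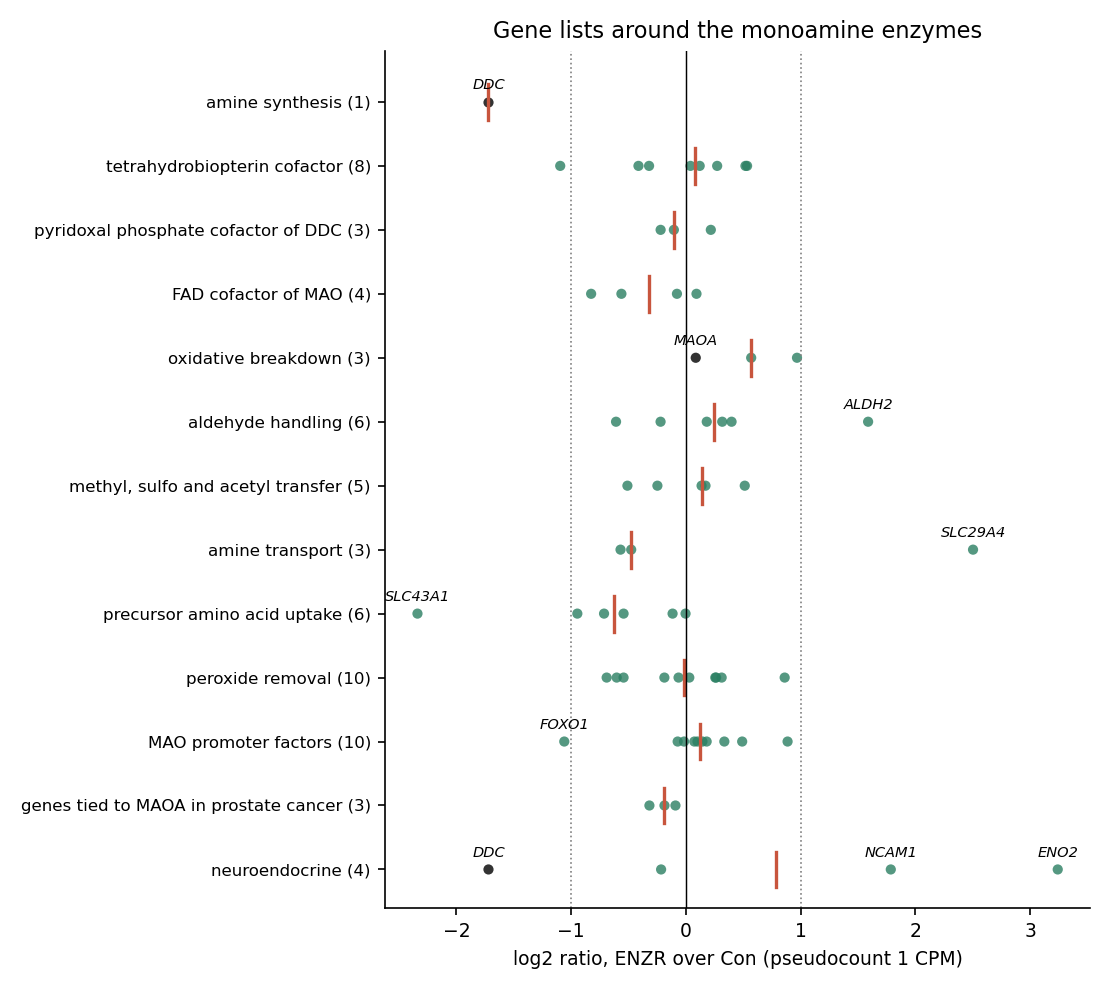
Log2 ratio of ENZR over Con (pseudocount 1 CPM) for each kept gene of 13 lists, with the number kept in brackets; red ticks are list medians, dotted lines mark 2-fold, and black points are DDC and MAOA. DDC stands alone as the kept gene of amine synthesis at -1.72, MAOA lies near 0, and SLC43A1, ALDH2 and SLC29A4 lie past 2-fold.

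Hydrogen peroxide, a product of MAOA, is removed by catalase, peroxiredoxins and glutathione peroxidases. Of 10 kept genes, 5 lay above 0 and 5 below, and 0 were 2-fold apart, with a median of -0.02 that became 0.10 with the TMM scaling undone. PRDX1 was at 686 CPM in Con against 819 CPM in ENZR, and PRDX6 at 345 CPM and 352 CPM, both peroxiredoxins.

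Of 12 genes for factors known to act on the MAO promoters, 10 were kept. Of these, 0 were at least 2-fold higher and 1 was at least 2-fold lower, beside 6.69% and 4.64% of all genes kept. That one was FOXO1, a forkhead factor, at 5.98 CPM in Con against 2.35 CPM in ENZR, 2.55-fold lower (1.85 to 3.55). Its log2 ratio of -1.06 became -0.97 with the TMM scaling undone and -0.58 with a pseudocount of 5 CPM. FOXO1 did not reach a mean of 5 CPM. CDCA7L, a repressor of MAOA, was at 60.1 CPM in Con against 112 CPM in ENZR, 1.86-fold higher (1.74 to 1.99). The CDCA7L log2 ratio of 0.89 became 1.00 with the TMM scaling undone. GATA2 was at 223 CPM and 313 CPM, and SP3, which binds GC boxes as in the promoters above, at 126 CPM and 119 CPM. Among genes that have been tied to MAOA in prostate cancer, HIF1A, the hypoxia factor, was at 148 CPM and 130 CPM, and VEGFA, its angiogenic target, at 105 CPM and 84.2 CPM. TWIST1, SHH, IL6 and TNFSF11 had at most 3 reads in either library.

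DDC is often read as a neuroendocrine marker. Of the 4 genes kept in that list, 2 had a log2 ratio above 0 (ENO2 and NCAM1) and 2 below (DDC and SYP). ENO2, neuron-specific enolase, was at 8.33 CPM in Con against 87.1 CPM in ENZR, a ratio of 10.5 (8.94 to 12.3). NCAM1, a neural adhesion molecule, had 3 reads in Con against 73 in ENZR, a ratio of 20.1 (6.61 to 99.6). It reached the mean of 1 CPM through ENZR alone, and its log2 ratio of 1.78 became 0.63 with a pseudocount of 5 CPM. SYP, synaptophysin, had 34 reads and 32 reads, or 1.67 CPM and 1.29 CPM, with a log2 ratio of -0.22. Of the 11 genes of the list, the other 7 had at most 7 reads in either library. INSM1, a factor of neuroendocrine fate, and CHGA and CHGB, chromogranins, had at most 3 reads in either library.

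The genes beside DDC on its chromosome had ratios nearer to 1. For DDC, the nearest protein-coding neighbours in RefSeq order (used for order only) were FIGNL1 and GRB10. FIGNL1, a DNA repair ATPase gene, was at 106 CPM in Con against 109.9 CPM in ENZR, a ratio of 1.03 (0.976 to 1.09), and GRB10, an adaptor of insulin receptor signalling, at 510.1 CPM and 511.5 CPM, a ratio of 1.00 (0.977 to 1.03). COBL, the next gene and an actin nucleator, was 1.59-fold lower (1.45 to 1.73). Of the other 7 genes up to 5 places away on either side, SEC61G, a subunit of the protein translocation channel, was 1.15-fold lower (1.05 to 1.25), and 6 had at most 2 reads in either library. The 573 kept genes of chromosome 7 had a median log2 ratio of 0.06.

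Around MAOA and MAOB, levels differed widely from gene to gene in both libraries. CASK, a scaffold kinase gene 4 places before MAOA, was at 42.8 CPM in Con against 62.2 CPM in ENZR, and KDM6A, a histone demethylase gene 5 places after MAOB, at 300 CPM and 353 CPM. NDP, the gene next to MAOB, which encodes norrin, had 9 and 10 reads, and EFHC2, the one after it, 20 and 25 reads. MAOA was thus flanked by nearly unread genes on both sides, PPP1R2C (under an older symbol, listed at 0 in both) before it and MAOB after it. The 461 kept genes of chromosome X had a median log2 ratio of 0.13.

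**Figure D4:**
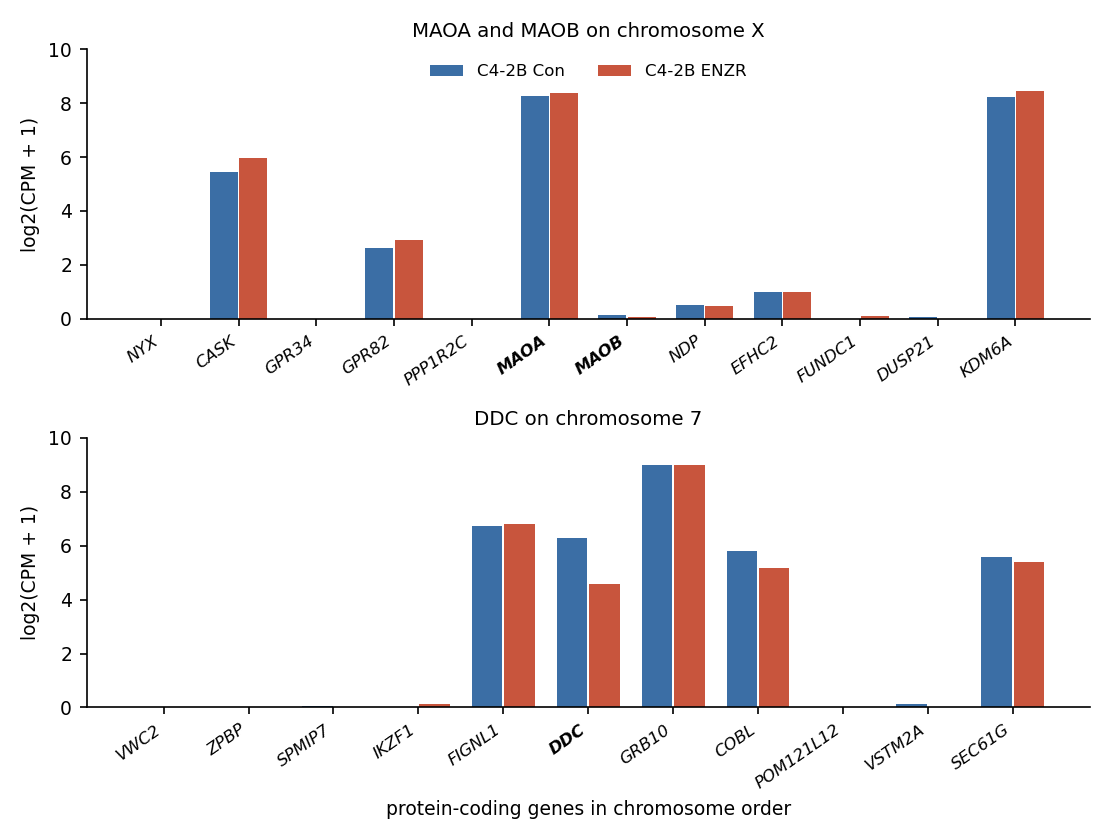
Levels as log2(CPM + 1) in C4-2B Con (blue) and C4-2B ENZR (red), 1 library each, for protein-coding genes in chromosome order around MAOA and MAOB (top) and DDC (bottom). MAOA is high beside an almost empty MAOB in both libraries, and DDC is lower in ENZR while FIGNL1 and GRB10 on either side have ratios near 1.

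The genes nearest to MAOA and DDC by their levels in both libraries (Euclidean distance on log2(CPM + 1), 2 libraries) are given as a description. For MAOA they were PDIA6 (307 CPM and 323 CPM), SQSTM1 (315 CPM and 329 CPM) and COPG1 (318 CPM and 327 CPM), at distances of 0.02, 0.03 and 0.04. For DDC they were HIST1H1C (86.3 CPM and 21.6 CPM), FRY (87.1 CPM and 21.6 CPM) and DNAJC1 (88.0 CPM and 24.7 CPM), at 0.17, 0.19 and 0.22. MAOA thus had closer neighbours in level than DDC.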

How the data were processed

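RNA was sequenced as single reads of 50 bases from 1 library per line. The authors deposited 1 signal value per gene and library, described as TMM-normalized reads per 1000000, for 25343 rows. Per the submitters' processing notes, Bowtie2 2.1.0, RSEM 1.2.15, edgeR and build hg19 were used, without roles. The annotation is not given in the sources used here, nor is strandedness. The columns summed to 1030021 and 949450, not 1000000, and 1 read was worth 0.0490 and 0.0404 CPM. All values (100%) lay within 0.01 reads of a whole number. RSEM shares out reads that map to several genes, so these may be rounded estimates. The table held 0 further sample columns.

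Log2 ratios used a pseudocount of 1 CPM, and genes were kept at a mean of 1 CPM or more. With 1 library per group edgeR cannot estimate a residual spread, so it was not run. In its place, the counting interval of the ratio left out 1 for 9825 of 13803 genes, a comparison of 2 libraries rather than of conditions. Python 3.11.15, SciPy 1.17.1 and pandas 2.3.3 were used, and the script was tested on simulated data. Other settings changed the pseudocount, filter and scaling.

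The members and gene lists were chosen with earlier results of these data known. Named genes are the members, KLK3, list genes past 2-fold (or, where fewer than 2 pass, the 2 most abundant), the 3 genes nearest in level and the 5 neighbours on each side, and some that this rule takes are not reported here. Others, such as AOC1, AOC3, CDCA7L, RNLS, AKR1A1, ADH5, SLC16A10, SYP, ALDH1A1, the SULT1A3 pair, SLC6A2 to SLC6A4, the hydroxylases and the genes nearly unread, were named after their values were seen.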

Additional observations from a re-analysis of the deposited data

How the results depend on the processing

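Over 7 other settings, 55 values were computed for 8 results, and 48 stayed within the counting interval, the interval of the median or 1.5 times the count. The MAOA log2 ratio of 0.09 became 0.15 with upper quartile scaling and 0.20 when the TMM factors were undone. It was also 0.20 when totals omitted the 10 most abundant genes. These values lay above its counting interval of 0.04 to 0.13. The same scalings raised the median of all genes from -0.01 to 0.06, 0.10 and 0.10. They could therefore not bring a ratio above 0 below it, and the kept direction is no check. The DDC log2 ratio of -1.72 became -1.57 with a pseudocount of 5 CPM and stayed past 2-fold in every setting run. Of all genes, 923 were at least 2-fold higher and 641 lower, but 447 and 371 with a pseudocount of 5 CPM, and 577 were higher with a mean of 5 CPM or more. MAOB gave no value under that last filter. No paired analysis was possible because each line had 1 library. The depth leaves MAOB, at 2 and 1 reads, without a fold.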
